A study of Homo sapiens with 12 samples.

Results

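The genes described here are 37 genes of the actin, myosin and contractile cytoskeleton, picked by gene name from the 58735 genes counted in each library. They comprise 4 actins, 3 myosin heavy chains, 4 myosin light chains and the light chain kinase MYLK, 4 tropomyosins, 7 proteins of the transgelin, calponin, caldesmon and leiomodin type, 4 actin crosslinkers, 3 adhesion plaque proteins, 5 further stress fibre proteins, the muscle intermediate filament gene DES, and the transcription factor gene SRF. Enough counts for a test were found for 36 of them, and DES had too few. The study sequenced RNA from wild-type LX-2 cells, an immortalised line of human hepatic stellate cells, in 12 libraries. The con group received neither agent. The TGFB group received TGF-β1 at 5 ng/ml for 24 h. SiNAT10 cells were transfected with siRNA against the RNA acetyltransferase gene NAT10 by a Lipofectamine reagent, and SiNAT10_TGFB cells received the same transfection and, 48 h later, 24 h of TGF-β1 at 5 ng/ml. Each group holds 3 libraries. No group with a control siRNA is named in the labels, so in each siRNA comparison the transfection and the loss of NAT10 cannot be told apart, and the sources used here give no harvest time for SiNAT10 cells.

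Stellate cells store vitamin A in the healthy liver and turn into contractile, matrix-producing myofibroblasts on injury, a change in which TGF-β1 is the best known signal. Contraction comes from stress fibres, in which bipolar filaments of non-muscle myosin II pull on actin filaments held together by alpha-actinin and filamin and anchored at focal adhesions, while tropomyosin, caldesmon and calponin line the filaments and set how myosin reaches them. Many genes of this machinery carry CArG boxes, the DNA element bound by SRF, whose cofactors MRTFA and MRTFB are released to the nucleus when monomeric actin is used up in filaments.

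Total counts ran from 25877008 to 35132582 per library, and NAT10 lay between 15.8 and 20.7 CPM (counts scaled to a common library total, with TMM scaling) in the 6 siRNA libraries against 62.9 to 69.9 CPM in the other 6. Of 12 stellate cell and myofibroblast markers, COL1A1, VIM, SPARC, THY1 and PDGFRB were expressed in every library, whereas DCN and LRAT had no count in any library, and PDGFRA and LUM stayed under 0.5 CPM. The defining hepatocyte genes ALB, APOA1 and TTR, the leukocyte gene PTPRC and the epithelial genes KRT19 and EPCAM stayed under 0.4 CPM, and the endothelial gene PECAM1 under 1.3 CPM. Other genes of these lists were detected: SERPINA1 at 13.7 to 28.4 CPM, SOX9 at 35.3 to 70.6 CPM, KRT7 at 2.00 to 5.72 CPM, CD14 at 1.06 to 4.84 CPM and CSF1R at 0.961 to 6.48 CPM. Several differed between groups. With the siRNA under TGF-β1, SERPINA1 rose by 0.87 and CD14 by 1.40, and CSF1R fell by 1.38. The stellate markers differed as well: of the 9 tested, 5 fell and 2 rose there, against 26.8% and 26.3% of all genes. COL3A1 changed by −3.06, PDGFRB by −2.58, COL1A1 by −2.47, VIM by −0.78 and THY1 by −0.58. FAP rose by 1.22 and RGS5 by 0.95, and SPARC (−0.08) and PDGFRA (−0.38) did not pass. The summed hepatocyte list (6 genes, 1 tested) lay at 15.1 to 19.0 CPM in con, 13.7 to 15.01 in TGFB, 23.2 to 24.4 in SiNAT10 and 24.4 to 28.4 in SiNAT10_TGFB, nearly all of it SERPINA1. The part of these genes in the results below was not tested. The labels speak of biological replicates without naming separate cultures. A p-value therefore measures the spread among these 12 libraries, which may be technical in part. Levels below are CPM in single libraries or as mean ± SD of 3 libraries. Differences are log2 fold changes with their standard error (SE) from edgeR's quasi-likelihood test, and a gene is said to have risen or fallen where the Benjamini-Hochberg adjusted p over all 18560 genes tested was under 0.05.

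TGF-β1 raised most of the contractile genes, and the siRNA lowered most of them, with and without the cytokine. The 37 genes together made up 3.92% ± 0.177 of all counts in con (SD, n = 3), 5.06% ± 0.0756 in TGFB, 2.35% ± 0.155 in SiNAT10 and 2.80% ± 0.0740 in SiNAT10_TGFB. The 4 groups did not overlap in this share: the lowest TGFB library was above the highest con library, and the highest siRNA library was below the lowest con library. ACTB and ACTG1 alone made up 1.23% ± 0.0907 of all counts in con and 1.56% ± 0.0195 in TGFB. Since these are bulk libraries, fewer cells of a type and less RNA per cell cannot be told apart.

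**Figure D1:**
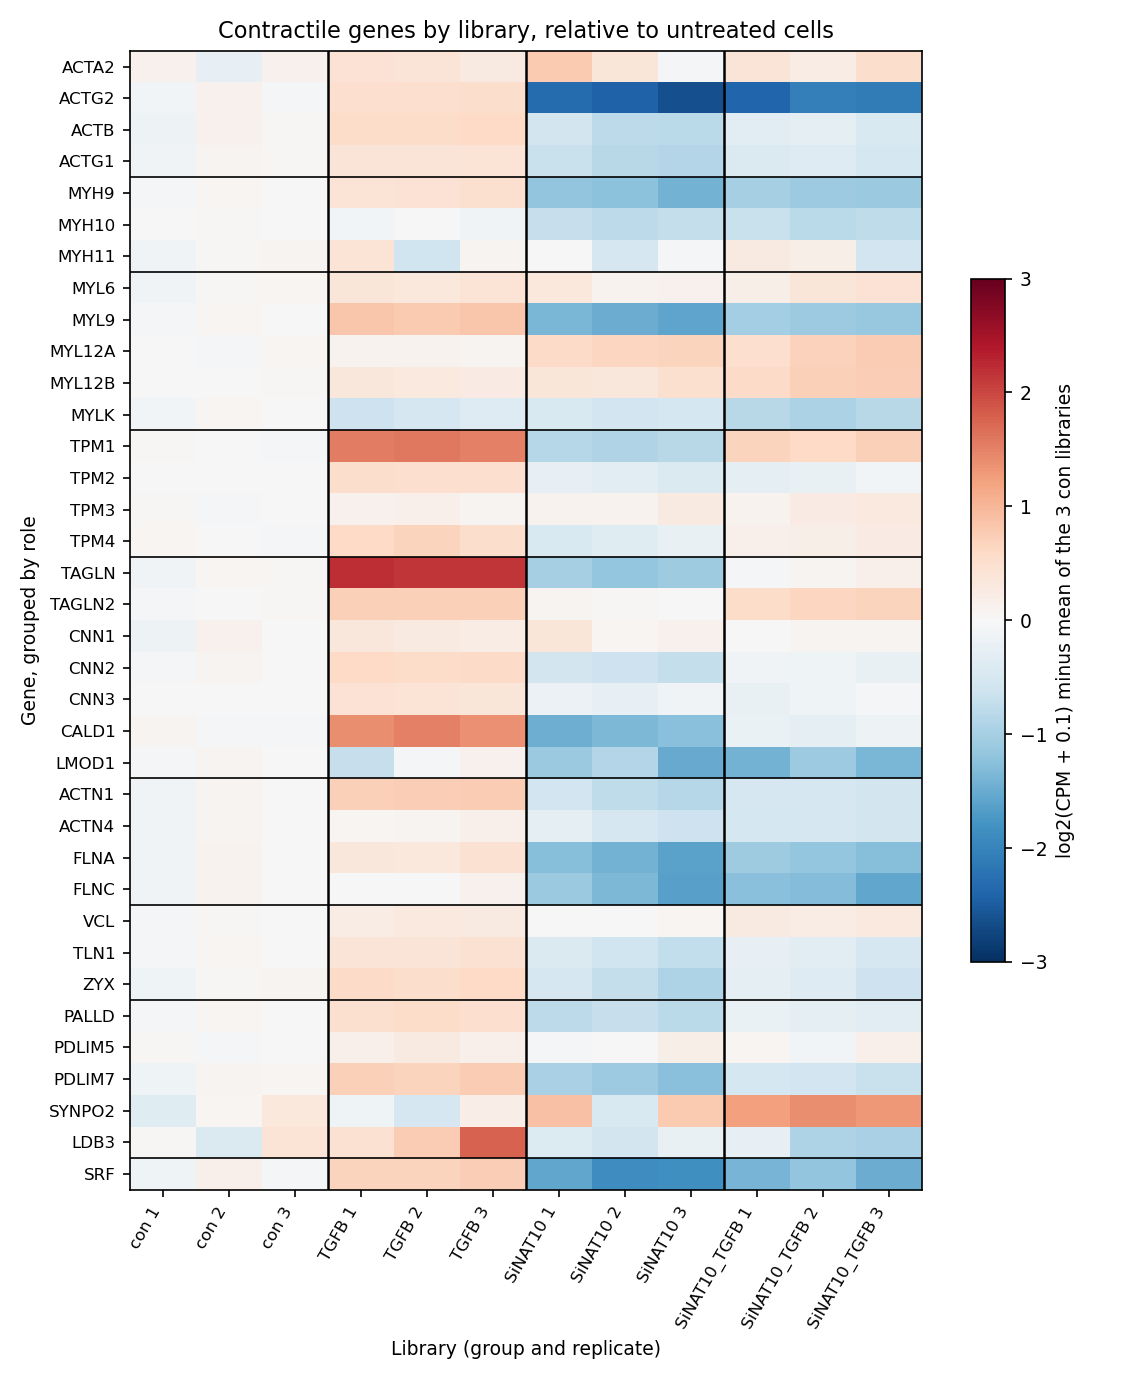
Level of the 36 tested genes (vertical axis, grouped by role with lines between roles) in each of the 12 libraries (horizontal axis), as log2(CPM + 0.1) minus the mean of the 3 con libraries; red is higher and blue lower, with colours ending at 3 in either direction. TAGLN, CALD1 and TPM1 stand out in red in the 3 TGFB libraries, ACTG2 and SRF in blue in the 6 siRNA libraries, and MYL12A in light red in those 6.

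In TGFB against con, 25 of the 36 tested genes rose and 1 fell (MYLK), with a median log2 fold change of 0.41 against −0.01 for all genes tested. Among all genes 11.9% rose and 12.2% fell in this comparison, or 24.1% in either direction. Since most of these genes are abundant and abundant genes are called more often, the nearer background is the 4842 genes with a mean of at least 50 CPM, of which 20.7% rose and 16.1% fell. Of the 29 contractile genes above that level, 23 rose. The 11 genes regarded as muscle-type (ACTA2, ACTG2, TAGLN, CNN1, MYL9, MYLK, MYH11, LMOD1, FLNC, SYNPO2 and LDB3) had a median of 0.27, with 4 risen and 1 fallen, and the 25 broadly expressed genes a median of 0.45, with 21 risen. The TGFB libraries were all above the con libraries for 29 of the 37 genes, against 19.9% of all genes tested, and all below them for MYLK alone.

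With the siRNA and no TGF-β1, 4 of the 36 genes rose and 24 fell, with a median of −0.61 (26.4% of all genes rose and 26.4% fell, 52.8% in either direction). Under TGF-β1, comparing SiNAT10_TGFB with TGFB, 3 rose and 26 fell, with a median of −0.74 (26.3% and 26.8% of all genes, 53.1% in either direction). The SiNAT10 libraries were all below con for 24 of the 37 genes and all above for 4 (28.8% and 28.9% of all genes), and those of SiNAT10_TGFB were all below TGFB for 27 and all above for 3 (30.4% and 30.2%). Among the genes with at least 50 CPM the shares that fell were 36.5% and 36.3%, and among the 29 contractile genes of that level 22 fell in each comparison. These 2 comparisons share no library with each other, but each shares 3 libraries with TGFB against con. Transcripts of the contractile genes are richer in G and C than most, with a median GC content of 53.8% against 48.5% for all genes. With the trend of fold change on GC content removed in each library, the medians were −0.50 and −0.57.

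SRF (ENSG00000112658; hg38 chromosome 6, 43171299 to 43181507, plus strand) encodes the serum response factor, the DNA-binding protein that reads CArG boxes. Its level was 101, 123 and 106 CPM in con, 175, 175 and 183 CPM in TGFB, 36.9, 29.8 and 30.6 CPM in SiNAT10, and 41.5, 47.8 and 39.0 CPM in SiNAT10_TGFB. Every TGFB library was higher than con, and the 6 siRNA libraries were all far below both. SRF rose by 0.69 (SE 0.084, adjusted p = 8.8e-07) with TGF-β1. It fell by 1.76 with the siRNA alone (SE 0.090). Under TGF-β1 the siRNA difference was −2.05 (SE 0.089, adjusted p = 7.9e-15). Of the members, only ACTG2, LDB3 and TAGLN fell by more in the last comparison. In siRNA cells TGF-β1 still raised SRF, by 0.40 (SE 0.091, adjusted p = 4.1e-03). It then stood 1.36 below con (SE 0.088).

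SRF's own promoter and those of several contractile genes hold CArG boxes, which is why 4 of them are shown. RefSeq windows of 300 bases, from 250 before to 50 after a transcription start (GRCh38.p14), were found for 32 of the 37 genes. There was none for ACTB, DES, MYH11, MYL9 or TAGLN. The strict CArG box (CC, then 6 bases that are each A or T, then GG, which reads in the same form on both strands) was found in a window of 9 of the 32 genes, or 28.1%: ACTG1, ACTG2, ACTN1, CNN2, FLNA, LDB3, MYLK, SRF and TPM4. It was found for 437 of 27305 genes with a window, or 1.6%. The contractile genes had 1.78 windows each on average and all genes 1.29. The start in the MYLK window lies 263783 bases downstream of the annotated gene start, and that in the ACTG1 window 11048 bases. The MYLK box is thus beside an internal start of the gene. A pair of boxes in 1 window was found for ACTG2 and SRF among the members and for 11 of all genes. The stretches below lie within 150 bases before the RefSeq start and end before the first exon of the GENCODE basic set (for SRF, at the RefSeq start, which lies before that exon), written 5′ to 3′ on the gene's strand with the CArG boxes in capitals.
ACTG2, chr2:73892858-73892966, plus strand, boxes starting 110 and 73 bases before the start: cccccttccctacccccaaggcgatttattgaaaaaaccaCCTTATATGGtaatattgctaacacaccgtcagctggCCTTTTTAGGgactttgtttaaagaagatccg
SRF, chr6:43171119-43171268, plus strand, boxes starting 30 and 10 bases before the start: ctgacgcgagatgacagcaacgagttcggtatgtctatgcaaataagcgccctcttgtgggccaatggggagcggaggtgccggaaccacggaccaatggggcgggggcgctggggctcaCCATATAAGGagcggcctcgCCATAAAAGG
FLNA, chrX:154374639-154374784, minus strand, box starting 94 bases before the start: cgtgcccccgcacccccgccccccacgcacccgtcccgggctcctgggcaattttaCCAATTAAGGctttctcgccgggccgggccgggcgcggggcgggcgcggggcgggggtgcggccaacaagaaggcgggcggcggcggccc
CNN2, chr19:1026458-1026580, plus strand, box starting 89 bases before the start: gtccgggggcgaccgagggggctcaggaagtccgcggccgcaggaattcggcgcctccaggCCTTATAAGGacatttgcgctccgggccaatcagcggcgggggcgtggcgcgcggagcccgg

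The 9 genes with a box in a window had a median log2 fold change of −1.25 in SiNAT10_TGFB against TGFB, and 9 of 9 fell. The 23 tested genes whose windows held none had a median of −0.62, with 14 fallen, 3 risen and 6 not past the threshold. In SiNAT10 against con the medians were −0.74 and −0.33, with 8 of 9 and 13 of 23 fallen. In TGFB against con they were 0.57 and 0.36, with 7 of 9 and 15 of 23 risen, and 1 of 9 and 0 of 23 fallen. The fallen gene was MYLK, counted here by the box beside its internal start, and 1 of 9 is near the share of all genes. Among all genes 26.8% fell and 26.3% rose in the first of these comparisons, and 26.4% fell in the second. In the third 11.9% rose and 12.2% fell. The 9 genes include SRF itself and LDB3, which had only 3 to 38 counts per library. The members without a box include TPM1, CALD1 and PDLIM7, and MYL9 and TAGLN had no window. A match describes the letters only, and the absence of one says only that the strict form is not in these windows. Nothing was tested about binding.

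The actins are the filament subunits. ACTB and ACTG1, the cytoplasmic beta and gamma actins of all non-muscle cells, gave nearly all actin RNA: per length, ACTB stood at 1784 ± 172 and ACTG1 at 1946 ± 140.2 FPKM in con. ACTG2, gamma actin of smooth muscle, stood at 18.3 ± 1.41 FPKM and ACTA2, alpha actin of smooth muscle, at 1.1 ± 0.155 FPKM. ACTA2, which usually serves to mark activated stellate cells, was the least abundant of the 4 actins in these cells.

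ACTB (ENSG00000075624; chromosome 7, 5527147 to 5563784) had 5648, 6849 and 6396 CPM in con and 9197, 9209.8 and 9474 CPM in TGFB. It had 4313, 3614 and 3592 CPM in SiNAT10 and 4934, 5106 and 4593 CPM in SiNAT10_TGFB. No library of one group lay within the range of another, in the order TGFB, con, SiNAT10_TGFB and SiNAT10. ACTB rose by 0.56 with TGF-β1 (SE 0.065), fell by 0.71 with the siRNA (SE 0.065), and fell by 0.93 with the siRNA under TGF-β1 (SE 0.065). In siRNA cells TGF-β1 raised it by 0.35 (SE 0.065, adjusted p = 6.0e-04).

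ACTG1 (ENSG00000184009; chromosome 17, 81509971 to 81523847) had 5383, 6209.7 and 5929 CPM in con, 7561, 7608 and 7719 CPM in TGFB, 3687, 3265 and 3179 CPM in SiNAT10, and 4284, 4475 and 4054 CPM in SiNAT10_TGFB. It followed the same order with no overlap. The rise with TGF-β1 was 0.39 (SE 0.055) and the fall with the siRNA 0.79 (SE 0.056) without and 0.84 (SE 0.056) with the cytokine. Per length, the ratio of ACTB to ACTG1 moved from 0.916 ± 0.0228 in con to 1.04 ± 0.00725 in TGFB, and lay at 0.966 ± 0.0269 and 0.971 ± 0.00795 in the siRNA groups. The lengths used were 3519 and 2993 exonic bases, while the longest transcripts have 2245 and 2256 bases. Which of these genes leads therefore depends on the length used. Reads of both genes can also match processed copies, but the named pseudogenes of ACTB and ACTG1 held counts equal to 0.0409% and 0.0624% of those of the genes.

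ACTG2 (ENSG00000163017; chromosome 2, 73892314 to 73919865, plus strand), whose promoter with 2 CArG boxes is printed above, had the largest fall of the contractile genes in each siRNA comparison. Its con libraries held 66.5, 76.2 and 67.4 CPM and its TGFB libraries 99.0, 98.8 and 101 CPM. It stood at 14.1, 12.9 and 11.1 CPM in SiNAT10 and at 13.5, 16.7 and 16.2 CPM in SiNAT10_TGFB. The 6 siRNA libraries were all under 17 CPM, and both untransfected groups all above 66 CPM. TGF-β1 raised ACTG2 by 0.51 (SE 0.083). With the siRNA under TGF-β1 the gene fell by 2.69 (SE 0.093, adjusted p = 1.4e-16), and it stood 2.18 below con (SE 0.092). In siRNA cells the TGF-β1 difference was 0.28 (SE 0.099, adjusted p = 0.073), and it passed the threshold without SiNAT10 replicate 1 (0.36, adjusted p = 0.023) or without SiNAT10_TGFB replicate 1 (0.37, adjusted p = 0.021). Its share of actin RNA, per length, was 0.489% ± 0.0235 in con and 0.50% ± 0.00217 in TGFB, and 0.150% ± 0.00946 and 0.144% ± 0.0180 in the siRNA groups.

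ACTA2 (ENSG00000107796; chromosome 10, 88935074 to 88991339) showed a different pattern from the other actins. It stood at 3.54, 2.73 and 3.53 CPM in con, 4.42, 4.26 and 3.95 CPM in TGFB, 5.63, 4.21 and 3.15 CPM in SiNAT10, and 4.30, 3.80 and 4.71 CPM in SiNAT10_TGFB. The TGFB libraries were all above con by a small margin, and the SiNAT10 libraries spread over the ranges of all the others. No comparison passed the threshold, and the adjusted p ran from 0.091 (SiNAT10 against con, 0.40, SE 0.198) to 0.97. Without SiNAT10 replicate 3 that comparison gave 0.59 (adjusted p = 0.017). Antisense exons cover 30.1% of the exonic length of ACTA2, and counts of 82 to 164 per library leave its values less certain than those of the other actins.

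**Figure D2:**
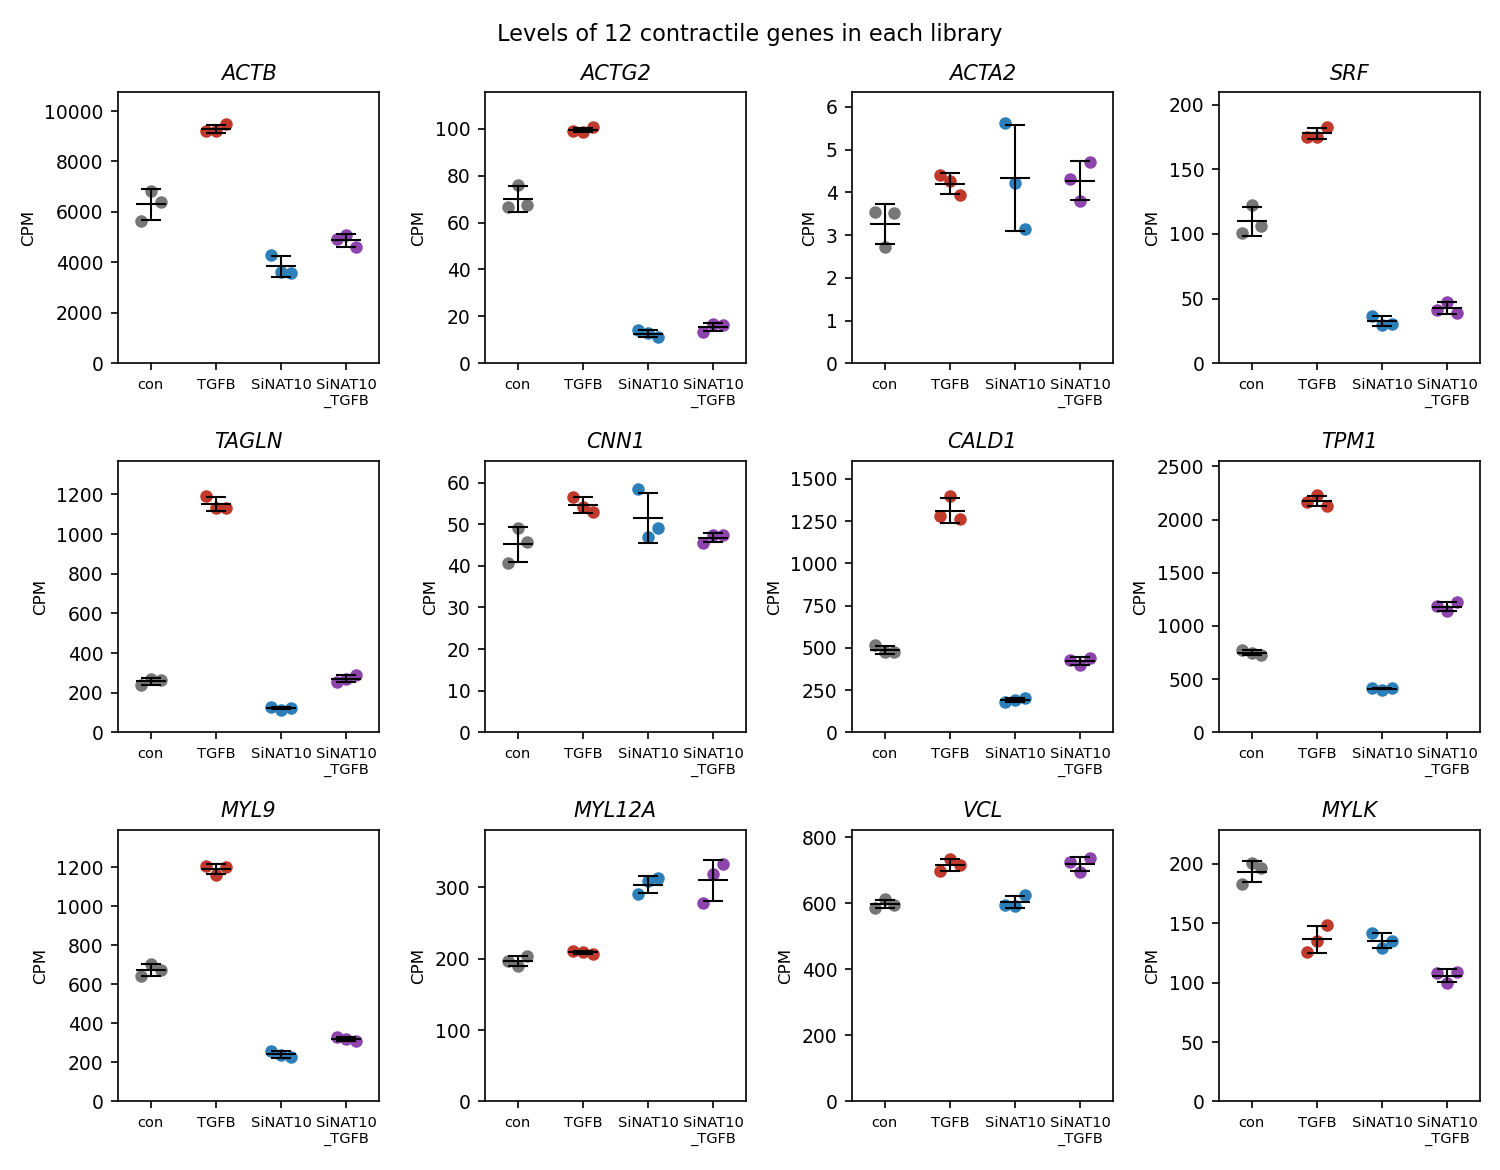
CPM with TMM scaling (vertical axes, from 0) of 12 contractile genes in each library, by group (horizontal axes); points are libraries, the long bar is the mean of 3 and the whiskers are 1 SD. ACTG2 and SRF lie under 50 CPM in both siRNA groups, TPM1 is raised by TGF-β1 with and without siRNA, and MYL12A is raised in both siRNA groups.

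The motor of stress fibres is non-muscle myosin II, built from heavy chains that bind actin and hydrolyse ATP. MYH9 encodes heavy chain IIA, MYH10 heavy chain IIB and MYH11 the heavy chain of smooth muscle. MYH9 rose from 5168 ± 175 CPM in con to 7045 ± 195 CPM in TGFB, a change of 0.45 (SE 0.053), and lay at 2133 ± 189.7 and 2463 ± 108 CPM in SiNAT10 and SiNAT10_TGFB, 1.28 and 1.52 below the matching untransfected groups (SE 0.054 and 0.055). MYH10 had 295 ± 6.66 CPM without and 284 ± 9.30 CPM with TGF-β1 (−0.06, adjusted p = 0.50) and fell by 0.74 and 0.68 with the siRNA (SE 0.056 each). Per length, MYH9 exceeded MYH10 by 17.5 ± 0.280 times in con, 24.9 ± 1.32 times in TGFB, 12.03 ± 1.13 times in SiNAT10 and 13.9 ± 0.361 times in SiNAT10_TGFB. MYH11, at 30 to 72 counts per library, passed in no comparison.

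The regulatory light chains hold the phosphorylation site that switches myosin II on, and here they parted company. MYL9 encodes the form named for smooth muscle, and MYL12A and MYL12B, neighbours on chromosome 18, the non-muscle forms. MYL9 (ENSG00000101335; chromosome 20, 36541484 to 36551447) stood at 643, 705 and 673 CPM in con, 1208, 1162 and 1201 CPM in TGFB, 258, 239 and 226 CPM in SiNAT10, and 329.7, 318 and 309 CPM in SiNAT10_TGFB. The TGFB libraries were above all others, and the siRNA libraries were all less than those of con. MYL9 rose by 0.82 (SE 0.055) with TGF-β1 and fell by 1.48 (SE 0.057) and 1.90 (SE 0.057) with the siRNA, without and with the cytokine.

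MYL12A (chromosome 18, 3247481 to 3256236) stood at 197, 189 and 204 CPM in con, 210.3, 209.7 and 206 CPM in TGFB, 290.3, 309 and 312 CPM in SiNAT10, and 278, 318 and 333 CPM in SiNAT10_TGFB. The siRNA libraries were above all libraries without siRNA. It rose by 0.63 and 0.57 with the siRNA (SE 0.063 each) and differed by 0.09 with TGF-β1 (adjusted p = 0.35). MYL12B (chromosome 18, 3261479 to 3278431) stood at 329, 333 and 339.9 CPM in con, 424, 407 and 395 CPM in TGFB, 432, 419.6 and 467 CPM in SiNAT10, and 494, 550.4 and 557 CPM in SiNAT10_TGFB. It was lowest in con and highest with both agents, and rose by 0.29 with TGF-β1 (SE 0.058) and by 0.40 with the siRNA (SE 0.058).

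Per length, the makeup of the 3 regulatory light chains differed between groups. MYL9 gave 50.6% ± 1.26 of their summed FPKM in con, 60.5% ± 0.797 in TGFB, 21.0% ± 1.76 in SiNAT10 and 23.4% ± 1.91 in SiNAT10_TGFB. MYL12B gave 36.6% ± 0.665 in con and 30.3% ± 0.749 in TGFB, and 55.9% ± 1.66 and 57.0% ± 1.01 in the siRNA groups. In every untransfected library MYL9 was the most abundant of the 3 by this measure, and in every siRNA library MYL12B was. The measure divides by all exonic bases: 2821 for MYL9, 3245 for MYL12A and 1932 for MYL12B. Their longest transcripts have 2821, 1229 and 1249 bases, so which gene leads in con depends on the length used. The plot of shares by library shows the change in these shares beside that of the tropomyosins.

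MYL6, the essential light chain that stiffens the lever arm of myosin II, stood at 550.1, 607 and 613 CPM in con, 762, 732 and 778 CPM in TGFB, 729.5, 631 and 645 CPM in SiNAT10, and 670.3, 763 and 792 CPM in SiNAT10_TGFB. Con held the lowest libraries, TGFB lay above SiNAT10, and SiNAT10_TGFB overlapped both. It rose by 0.36 with TGF-β1 (SE 0.065) and by 0.18 with the siRNA (SE 0.065, adjusted p = 0.024), and the latter was lost once the GC trend was removed (0.09) or when con replicate 1 (0.13) or SiNAT10 replicate 1 (0.11) was left out. MYLK (ENSG00000065534; chromosome 3, 123610049 to 123884331), the kinase that phosphorylates the regulatory light chains, stood at 183, 201 and 196 CPM in con, 126, 135 and 148 CPM in TGFB, 141, 129 and 135 CPM in SiNAT10, and 108, 99.7 and 109 CPM in SiNAT10_TGFB. Each treated group lay below con, and the group with both agents lay lowest. It was the only one of the 36 to fall with TGF-β1, by 0.50 without siRNA (SE 0.067) and by 0.35 with it (SE 0.067), and it fell by 0.52 (SE 0.067) and 0.37 (SE 0.067) with the siRNA. With both agents it stood 0.87 below con (SE 0.067).

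Tropomyosins are coiled-coil dimers that run along actin filaments and sort them into classes. TPM1 (ENSG00000140416; chromosome 15, 63042632 to 63071915) stood at 774, 748 and 728 CPM in con, 2166, 2227 and 2127 CPM in TGFB, 415, 402 and 420.0 CPM in SiNAT10, and 1189, 1137 and 1222 CPM in SiNAT10_TGFB. The groups were far apart, and both TGF-β1 groups lay above both groups without the cytokine. TGF-β1 multiplied TPM1 by 2.90 without siRNA (1.53, SE 0.048) and by 2.87 with it (1.52, SE 0.048), the largest rise of any contractile gene in siRNA cells. The TGF-β1 effect with siRNA minus that without was −0.02 (SE 0.067, adjusted p = 0.95). The siRNA lowered TPM1 by 0.86 (SE 0.048) without the cytokine and by 0.88 (SE 0.047) with it. Antisense exons cover 21.4% of the exonic length of TPM1.

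TPM4, a tropomyosin of non-muscle cells, rose by 0.59 and 0.55 with TGF-β1 (SE 0.057 each) and fell by 0.35 and 0.40 with the siRNA (SE 0.057 each). TPM2, beta tropomyosin, rose by 0.51 with TGF-β1 in untransfected cells (SE 0.058) but differed by 0.13 in siRNA cells (SE 0.058, adjusted p = 0.18). TPM3 stayed between 425 and 544 CPM in the 12 libraries, with a rise of 0.16 (SE 0.059, adjusted p = 0.024) with the siRNA alone that was lost without con replicate 2 or 3 or without SiNAT10 replicate 3 (0.10 to 0.17), and that was 0.00 with the GC trend removed. Its 8 named pseudogenes held counts equal to 3.25% of its own. Per length, TPM1 went from 18.7% ± 0.317 of the summed FPKM of the 4 tropomyosins in con to 32.4% ± 0.126 in TGFB, and from 12.8% ± 0.260 in SiNAT10 to 25.6% ± 0.921 in SiNAT10_TGFB. TPM3 moved in the other direction, from 16.9% ± 0.332 to 10.97% ± 0.0756 and from 23.6% ± 0.913 to 17.1% ± 0.681.

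**Figure D3:**
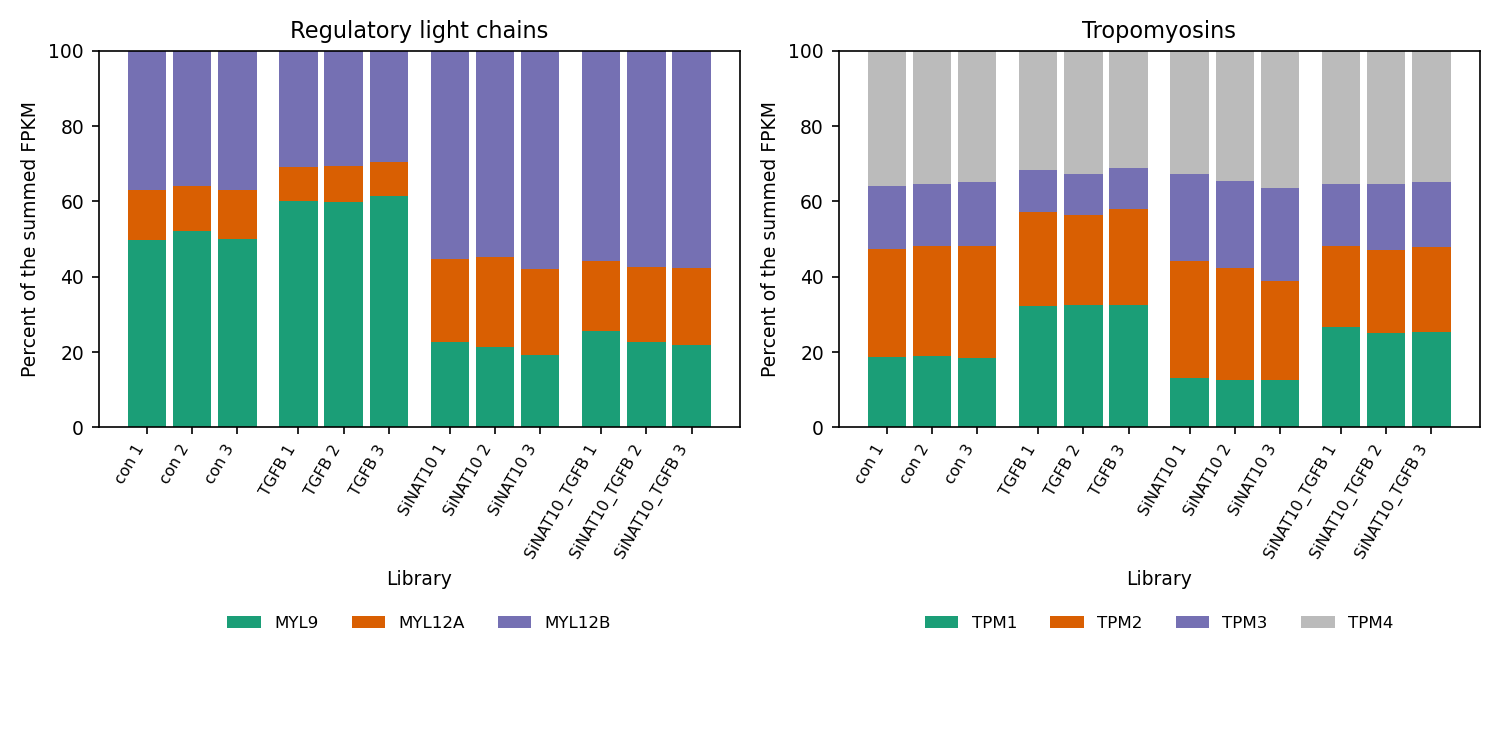
Share of the summed FPKM of the 3 regulatory light chains (left) and of the 4 tropomyosins (right) taken by each gene, in percent (vertical axes), in each of the 12 libraries (horizontal axes). MYL9 takes 50.6% on average in con and 21.0% in SiNAT10, and TPM1 18.7% in con and 32.4% in TGFB.

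The transgelins, calponins and caldesmon bind the sides of actin filaments. TAGLN (ENSG00000149591; chromosome 11, 117199321 to 117204782), the smooth muscle transgelin, stood at 239, 270.1 and 264 CPM in con, 1190.0, 1129.6 and 1133 CPM in TGFB, 129.8, 115 and 124 CPM in SiNAT10, and 252, 270.2 and 287 CPM in SiNAT10_TGFB. The TGFB libraries were far above the rest, and with both agents the level lay within or just above the con range (0.07 above con, SE 0.062, adjusted p = 0.38; 0.27, adjusted p = 2.3e-04, with the GC trend removed). TGF-β1 multiplied TAGLN by 4.47 in untransfected cells and by 2.2 in siRNA cells. Its relative TAGLN2, the broadly expressed transgelin, rose by 0.72 (SE 0.048) and 0.57 (SE 0.048) in the same comparisons. TAGLN2 did not pass with the siRNA alone (0.05, SE 0.048, adjusted p = 0.41) or under TGF-β1 (−0.09, SE 0.048, adjusted p = 0.10). With the GC trend removed it passed as higher in both, at 0.29 (adjusted p = 9.4e-06) and 0.14 (adjusted p = 0.011). The ratio of TAGLN to TAGLN2 per length was 0.215 ± 0.0105 in con, 0.583 ± 0.0190 in TGFB, 0.0989 ± 0.00504 in SiNAT10 and 0.146 ± 0.00422 in SiNAT10_TGFB. The gene PCSK7 on the other strand overlaps 11.4% of the exonic length of TAGLN.

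CALD1 (ENSG00000122786; chromosome 7, 134744252 to 134970728), caldesmon, which holds back myosin on actin filaments, stood at 516, 474 and 479 CPM in con, 1278, 1399 and 1261 CPM in TGFB, 177, 192 and 205 CPM in SiNAT10, and 429, 399 and 441 CPM in SiNAT10_TGFB. The level with both agents was just under that of con (−0.21, SE 0.061, adjusted p = 5.5e-03), and the 4 groups did not overlap. CALD1 was multiplied by 2.68 with TGF-β1 in untransfected cells and by 2.21 in siRNA cells, and it fell by 1.35 and 1.63 with the siRNA (SE 0.062 each).

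CNN1, the calponin of smooth muscle, stood at 40.8, 49.1 and 45.6 CPM in con, 56.6, 54.2 and 52.9 CPM in TGFB, 58.4, 46.9 and 49.1 CPM in SiNAT10, and 45.5, 47.5 and 47.3 CPM in SiNAT10_TGFB. All of TGFB lay a little above con, and the siRNA groups overlapped con. CNN1 rose by 0.27 with TGF-β1 (SE 0.084, adjusted p = 0.019), a call lost without con replicate 1 (0.20), TGFB replicate 1 (0.24) or TGFB replicate 2 (0.27). With the siRNA under TGF-β1 it fell by 0.22 (SE 0.084, adjusted p = 0.029), a call lost in 5 of the 12 fits that each left out a library (adjusted p up to 0.10), and with the GC trend removed the value was 0.12. With the siRNA alone the difference was 0.19 (SE 0.084, adjusted p = 0.063). It passed at 0.53 with the GC trend removed (adjusted p = 2.6e-07), at 0.22 and 0.24 with scaling by upper quartile and by library size, and at 0.22 to 0.25 when replicate 2 of con or replicate 2 or 3 of SiNAT10 was left out. SiNAT10_TGFB against con gave 0.05 (adjusted p = 0.64), and 0.35 with the GC trend removed (adjusted p = 1.1e-04). CNN2 and CNN3, calponins of non-muscle cells, rose by 0.57 and 0.40 with TGF-β1 (SE 0.058 and 0.055). CNN2, whose promoter is printed above, fell by 0.63 and 0.72 with the siRNA (SE 0.058 each), and CNN3 by 0.18 and 0.54 (SE 0.055 each). The CNN3 fall with the siRNA alone was not called without SiNAT10 replicate 2 (0.14 lower, adjusted p = 0.063).

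The crosslinkers tie actin filaments into bundles and nets. ACTN1 (ENSG00000072110; chromosome 14, 68874143 to 68979440), the alpha-actinin of stress fibres and adhesions, stood at 2310.1, 2612 and 2511 CPM in con, 4053, 4113 and 4221 CPM in TGFB, 1649, 1452 and 1360.3 CPM in SiNAT10, and 1757, 1752 and 1692 CPM in SiNAT10_TGFB. TGFB lay well above con, and the siRNA groups lay below con and close together. ACTN1 rose by 0.74 with TGF-β1 (SE 0.058) and fell by 0.74 and 1.25 with the siRNA (SE 0.058 and 0.059). In siRNA cells the rise was 0.22 (SE 0.058, adjusted p = 0.012), and it missed the threshold without SiNAT10 replicate 2 (0.20) or 3 (0.16) or SiNAT10_TGFB replicate 2 (0.21). Its close relative ACTN4 differed by 0.09 with TGF-β1 (SE 0.065, adjusted p = 0.36) and fell by 0.47 and 0.62 with the siRNA (SE 0.066 each). The ratio of ACTN1 to ACTN4 per length was 0.931 ± 0.00836 in con and 1.46 ± 0.0162 in TGFB, and 0.776 ± 0.0161 and 0.941 ± 0.0118 in SiNAT10 and SiNAT10_TGFB. The lengths used were 10626 and 6098 exonic bases, while the longest transcripts have 4674 and 4963 bases. Which gene leads therefore depends on the length used, and only the change between groups can be read.

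FLNC, the filamin named for muscle, stood at 2667, 3100.0 and 2887 CPM in con, 2925, 2919 and 3137 CPM in TGFB, 1326, 1138 and 924 CPM in SiNAT10, and 1204, 1165 and 983 CPM in SiNAT10_TGFB. Con and TGFB overlapped, and every siRNA library was less than any library without siRNA. FLNC fell by 1.35 and 1.42 with the siRNA (SE 0.091 each), and its TGF-β1 differences were 0.05 (adjusted p = 0.73) and −0.02 (adjusted p = 0.95). FLNA, the filamin of most cells, whose promoter is printed above, fell by 1.43 and 1.53 with the siRNA (SE 0.071 each) and rose by 0.37 with TGF-β1 (SE 0.069). In siRNA cells FLNA rose by 0.27 (adjusted p = 0.011), which missed the threshold without SiNAT10 replicate 3 (0.18) or SiNAT10_TGFB replicate 1 (0.22).

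Adhesion plaque proteins couple stress fibres to integrins. VCL, vinculin, stood at 598 ± 13.2 CPM in con and 603 ± 18.2 CPM in SiNAT10, and at 715 ± 18.2 CPM in TGFB and 718 ± 21.4 CPM in SiNAT10_TGFB. It rose by 0.26 and 0.25 with TGF-β1 (SE 0.049 each). The siRNA differences were 0.01 (SE 0.049) in each comparison, unlike those of TLN1 and ZYX, which fell. With the GC trend removed VCL passed as lower in both, at −0.15 (adjusted p = 3.1e-03) and −0.14 (adjusted p = 5.6e-03). With scaling by library size alone it passed as higher in the second, at 0.14 (adjusted p = 0.019). TLN1, talin, which activates integrins, fell by 0.58 and 0.77 with the siRNA (SE 0.070 each), and ZYX, zyxin, which gathers on stretched fibres, by 0.71 and 1.00 (SE 0.088 each). TLN1 and ZYX rose by 0.42 and 0.57 with TGF-β1 in untransfected cells (SE 0.069 and 0.087). Their rises in siRNA cells, 0.23 (adjusted p = 0.030) and 0.27 (adjusted p = 0.045), were not stable. The TLN1 call was lost without any one of SiNAT10 replicate 2 or 3 or SiNAT10_TGFB replicate 1 or 2 (0.16 to 0.22), and the ZYX call in 9 of the 12 fits that each left out a library (0.17 to 0.28).

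Among the other stress fibre proteins, PALLD, palladin, a scaffold of dense bodies, rose by 0.51 and 0.47 with TGF-β1 (SE 0.061 and 0.062) and fell by 0.76 and 0.80 with the siRNA (SE 0.062 and 0.061). PDLIM7, a PDZ-LIM adaptor, rose by 0.71 and 0.51 (SE 0.069 and 0.070) and fell by 1.1 and 1.30 (SE 0.070 each). For PDLIM5, another PDZ-LIM adaptor, the siRNA difference under TGF-β1 was −0.14 (SE 0.068, adjusted p = 0.087). It passed the threshold with the GC trend removed (−0.32, adjusted p = 1.7e-06), without SiNAT10 replicate 3 (−0.14, adjusted p = 0.040) and without SiNAT10_TGFB replicate 3 (−0.19, adjusted p = 0.036). Its rise of 0.19 with TGF-β1 (adjusted p = 0.047) was lost in 9 of the 12 fits that each left out a library, among them those without any one con or TGFB library (0.15 to 0.21).

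The remaining muscle-type genes were scarcely expressed. SYNPO2, an actin-bundling protein of muscle, had 25, 30 and 39 counts in con, 28, 21 and 33 in TGFB, 54, 19 and 48 in SiNAT10, and 69, 70 and 69 in SiNAT10_TGFB. The group with both agents was above all others, and SYNPO2 was among the 3 genes higher there than in TGFB (1.53, SE 0.338, adjusted p = 5.4e-04). LDB3, a Z-disc protein, had 11, 6 and 14 counts in con, 15, 19 and 38 in TGFB, 6, 5 and 7 in SiNAT10, and 7, 3 and 3 in SiNAT10_TGFB. TGFB held the highest counts, with replicate 3 well above the other two, and LDB3 was lower with both agents than in TGFB (adjusted p = 3.0e-03). LMOD1, leiomodin, a filament nucleator of smooth muscle, had 33, 32 and 32 counts in con, 19, 31 and 33 in TGFB, 12, 14 and 8 in SiNAT10, and 9, 11 and 9 in SiNAT10_TGFB. The siRNA libraries were all under the others, with falls of 1.33 (SE 0.422, adjusted p = 0.011) and 1.32 (SE 0.434, adjusted p = 0.013). The latter missed the threshold without TGFB replicate 3 (1.12 lower, adjusted p = 0.064). DES, desmin, had 8, 4 and 0 counts in con, 2 counts in 1 SiNAT10 library and none in the 6 TGF-β1 libraries, where 0 counts allow up to 0.0926 to 0.115 CPM (3 counts per library, covering counting error only).

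In siRNA cells TGF-β1 raised 19 of the 36 genes and lowered MYLK, with a median of 0.24 (5.92% of all genes rose and 5.15% fell in this comparison, 11.1% in either direction; 11.4% and 6.80% of those with at least 50 CPM). In the same comparison the SiNAT10_TGFB libraries were all above SiNAT10 for 17 of the 37 genes, against 11.5% of all genes. Whether the TGF-β1 effect itself differed with the siRNA was tested as the interaction, the effect with siRNA minus the effect without. It was negative in 5 of the 36 genes and positive in none (1.91% and 1.94% of all genes, 3.85% in either direction), with a median of −0.17. TAGLN had the largest difference, −1.02 (SE 0.088, adjusted p = 6.4e-08), followed by ACTN1 with −0.52 (SE 0.082, adjusted p = 3.2e-04), MYL9 with −0.42 (SE 0.078, adjusted p = 2.0e-03), TPM2 with −0.38 (SE 0.082, adjusted p = 7.9e-03) and CNN3 with −0.36 (SE 0.078, adjusted p = 6.6e-03). TPM1, TPM4, PALLD, VCL and ACTG1 lay between −0.05 and −0.01 (SE 0.067 to 0.087). Without SiNAT10 replicate 3 the count of negative genes was 8, with CNN1, MYH9 and ZYX added. Within SiNAT10, replicate 1 held the highest value for 24 of the 36 genes and replicate 3 the lowest for 18. Con was likewise uneven, with replicate 1 lowest for 25 and replicate 2 highest for 20. These orders were not counted over all genes, so they are not shown to be particular to the contractile genes. The median coefficient of variation of the contractile genes was 8.77% in SiNAT10, against 5.41% in con, 3.03% in TGFB and 5.84% in SiNAT10_TGFB.

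**Figure D4:**
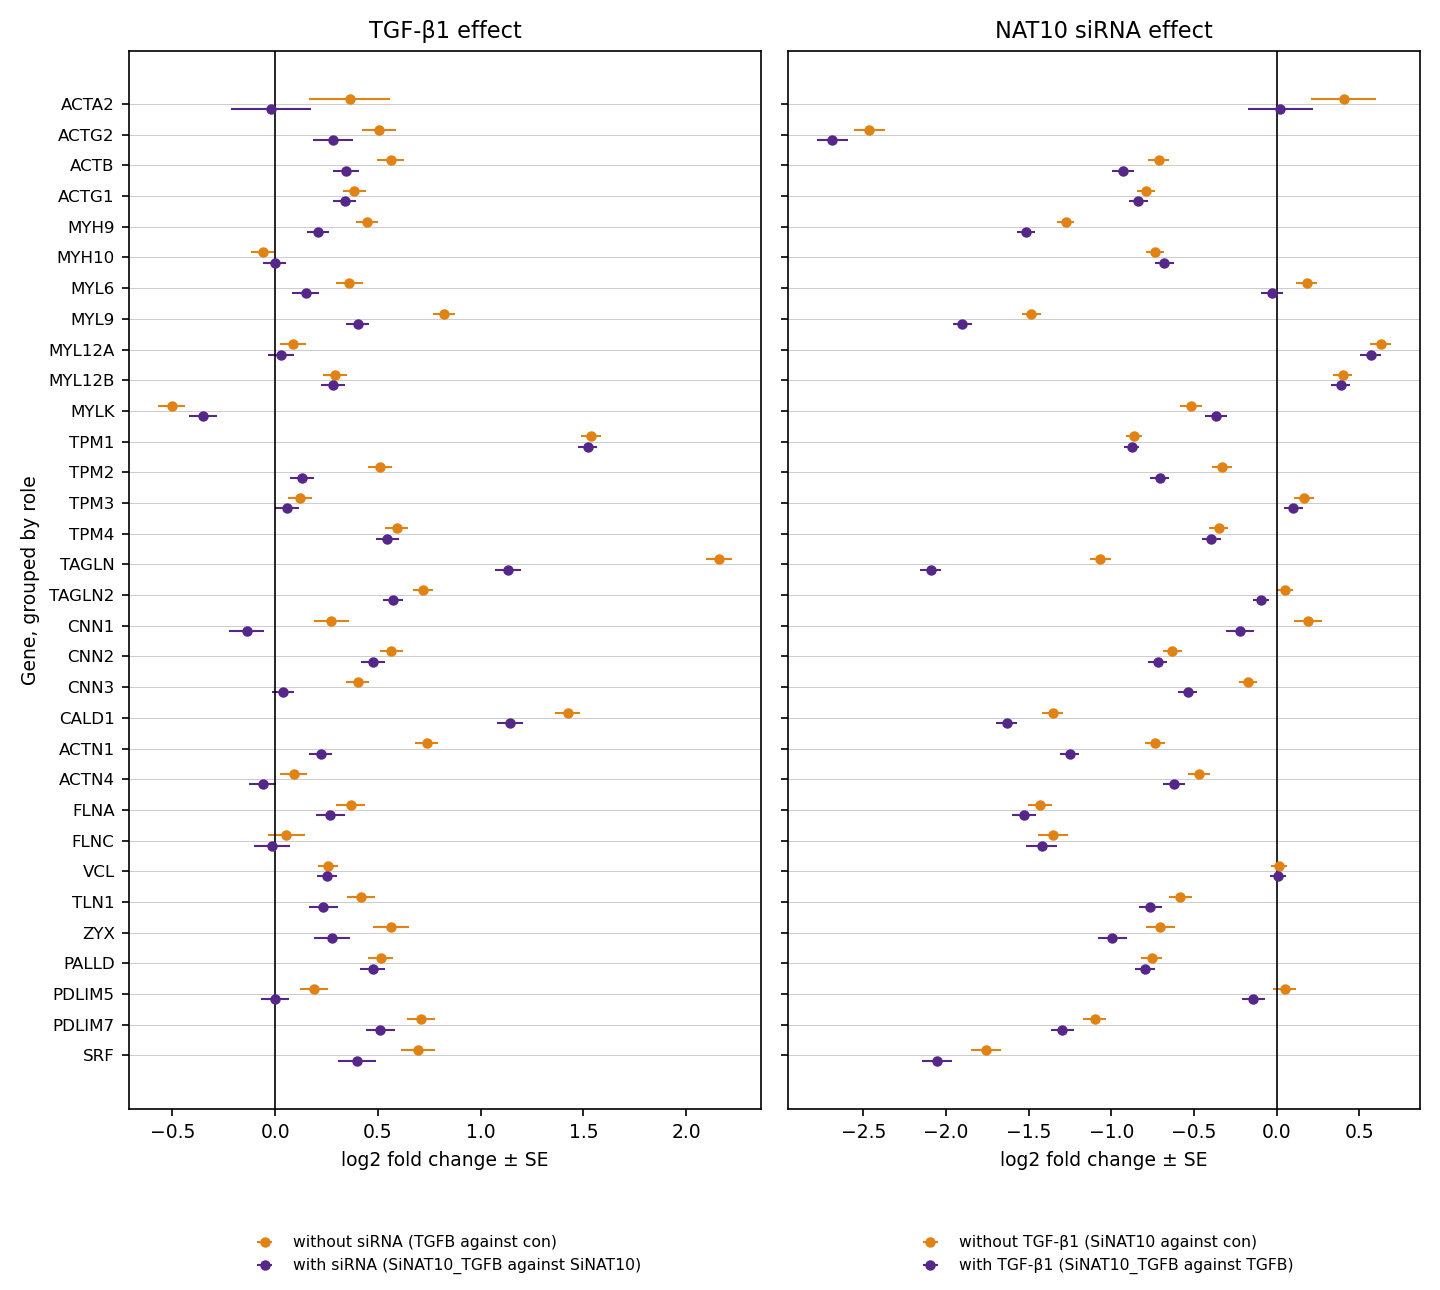
Log2 fold change ± SE (horizontal axes) of the 32 contractile genes with a mean of at least 4 CPM, grouped by role (vertical axis). Left, the TGF-β1 effect in untransfected (orange) and siRNA cells (purple); right, the siRNA effect without (orange) and with TGF-β1 (purple). The 2 points of TPM1 lie together at 1.53 and 1.52 on the left, while those of TAGLN lie apart at 2.16 and 1.14, and ACTG2 lies farthest to the left in the right panel.

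Set against con, cells given both agents had 9 contractile genes higher and 21 lower. Among all genes 27.3% rose and 27.3% fell in this comparison, 54.6% in either direction. The 9 higher genes are thus near the background share, and the 21 lower genes are above it. Shares among genes with at least 50 CPM are not given for this comparison or for the interaction. The median of the contractile genes was −0.25, and −0.12 with the GC trend removed. The genes above con were SYNPO2 (1.36, SE 0.333), MYL12B (0.68, SE 0.058), TPM1 (0.66, SE 0.047), MYL12A (0.66, SE 0.063), TAGLN2 (0.62, SE 0.048), MYL6, VCL, TPM3 and TPM4. Those farthest below were ACTG2, LMOD1 (−1.50, SE 0.431), FLNC (−1.37, SE 0.091), SRF, FLNA (−1.16, SE 0.070), MYL9 (−1.08, SE 0.056) and MYH9 (−1.07, SE 0.054). With that trend removed TPM3 (0.08), TPM4 (0.04), TPM2 (−0.11), CNN2 (−0.02) and ZYX (0.045, from −0.43) no longer passed. CNN2 (−0.15) and CNN3 (−0.14) were a little below con. Their calls were lost without con replicate 2 or SiNAT10_TGFB replicate 3 for CNN2 (−0.12 each) and without any one of the 3 con libraries, SiNAT10_TGFB replicate 1 or SiNAT10_TGFB replicate 2 for CNN3 (−0.15 to −0.09).

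The other genes of the pathway were read from lists compiled from general knowledge. Of 8 SRF cofactors and partners, 7 were tested, and 2 rose and none fell with TGF-β1. MRTFA rose from 59.3 ± 3.10 to 115 ± 5.97 CPM (0.95, SE 0.083), while MRTFB was at 49.3 ± 2.23 and 45.5 ± 2.58 CPM (−0.12, adjusted p = 0.35). With the siRNA MRTFA fell by 0.64 (SE 0.086) and 0.90 (SE 0.084), and MRTFB by 0.94 and 0.86 (SE 0.087 each). ELK3, an ETS partner of SRF, rose by 0.66 with TGF-β1 (SE 0.065) and fell by 0.60 and 0.93 with the siRNA (SE 0.066 and 0.065). MYOCD, myocardin, the cofactor that drives smooth muscle genes, moved the other way: it had 19.8 ± 1.59 CPM without and 21.0 ± 0.258 CPM with TGF-β1, and rose to 27.0 ± 1.75 CPM in SiNAT10 and 37.6 ± 1.93 CPM in SiNAT10_TGFB (0.45 and 0.84 with the siRNA, SE 0.087 and 0.086).

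Of 15 other genes described as targets of SRF and its cofactors, 11 rose and 3 fell with TGF-β1, 4 rose and 9 fell with the siRNA alone, and 1 rose and 10 fell with the siRNA under TGF-β1. The shares over all genes given above (11.9% and 12.2%, 26.4% and 26.4%, 26.3% and 26.8%) are the background for these lists, and 4 of 15 risen with the siRNA alone is near it. CSRP1, a LIM protein of muscle, fell by 0.95 (SE 0.053) in the last comparison, and ANKRD1, a strain-responsive ankyrin protein, by 0.20 (SE 0.067) after rising by 1.64 (SE 0.071) with TGF-β1 alone. Of 16 tested focal adhesion genes outside the members, 9 rose and 2 fell with TGF-β1, and 1 rose and 11 fell with the siRNA under TGF-β1. The 2 that fell with TGF-β1 are near the background share. TNS1, tensin 1, rose by 0.95 and 1.35 with TGF-β1 (SE 0.093 and 0.099) and fell by 1.73 and 1.32 with the siRNA (SE 0.099 and 0.095). LPP, a relative of zyxin, fell by 1.22 and 1.38 with the siRNA (SE 0.073 each).

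Of 26 tested genes for actin filament turnover, 10 rose and 4 fell with TGF-β1. With the siRNA alone 7 rose and 6 fell, with a median of 0.06, and under TGF-β1 7 rose and 11 fell, with a median of −0.05. The 7 that rose are near the background share in both comparisons. So are the 6 that fell with the siRNA alone and the 4 that fell with TGF-β1. CFL1, cofilin, which severs filaments, fell by 0.33 (SE 0.044) with the siRNA under TGF-β1, and the formin FHOD1 by 0.91 (SE 0.083). The summed level of the turnover genes lay at 7555 to 7788 CPM in con and 7496 to 7808 CPM in SiNAT10, ranges that overlap.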

How the data were processed

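RNA from 12 LX-2 libraries was compared in 4 groups of 3. The authors deposited, per gene, counts of reads and FPKM values (fragments per length and depth). The tools were fastp and HISAT2 2.2.1 and the build hg38, per the submitters' processing notes. No counting tool, annotation or strand setting is named: these were not given in the sources used here. The 58735 genes match GENCODE release 29 in start and end. The deposited FPKM equal values made from the counts up to a factor of 0.9334 to 1.0879 per library, so the counts were tested. Total counts were 25877008 to 35132582 per library, and 3 counts equal 0.0871 to 0.115 CPM.

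Counts were filtered (filterByExpr), scaled by TMM and fitted with edgeR 4.0.16 (R 4.3.3) in 1 quasi-likelihood model of the 12 libraries, with 6 contrasts and Benjamini-Hochberg adjustment over 18560 genes. SE is the absolute log2 fold change divided by the root of F. The deposited FPKM were used for levels between genes, and the gene length behind them includes minor exons. Orders, ratios and shares between genes depend on that length. Alternatives were other scaling, no filter, DESeq2 1.42.0, limma 3.58.1 on log2(FPKM + pseudocount), stricter thresholds, only the groups compared, removal of the GC trend, the replicate number as a block, and each library left out. The procedure was tested on simulated data.

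Values in every library are given for ACTA2, ACTG2, ACTB, ACTG1, TAGLN, CNN1, MYL9, SRF and the called members with the 3 largest changes per direction in each contrast. From each list of other genes, MRTFA, MRTFB, MYOCD and up to 2 called genes with the smallest p were eligible; not all are printed. One list of other genes is not reported here. The members and lists were chosen with earlier results of these data known.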

Additional observations from a re-analysis of the deposited data

Results flagged for a closer look

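The response to TGF-β1 differed between siRNA cells and untransfected cells in 5 of the 36 tested genes, by the interaction term of the edgeR model. The log2 response with siRNA minus that without was −1.02 for TAGLN (2.2-fold against 4.47-fold), −0.52 for ACTN1 (1.17-fold against 1.67-fold), −0.42 for MYL9 (1.32-fold against 1.77-fold), −0.38 for TPM2 and −0.36 for CNN3. In each of the 5 the response was smaller in siRNA cells. The TPM2 difference missed the threshold with unfiltered FPKM (adjusted p = 0.051). What lies behind these differences was not tested.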

How the results depend on the processing

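Counts of risen and fallen genes among the 36 kept within 1.5 times their value under most alternatives. With a change of at least 0.5 also asked for, 15 genes rose in TGFB against con, 1 rose in SiNAT10 against con, 6 rose and 0 fell in SiNAT10_TGFB against SiNAT10, 5 rose and 12 fell in SiNAT10_TGFB against con, and 2 interactions were negative. With adjusted p under 0.01, and with unfiltered FPKM, 2 rose in SiNAT10 against con, and with the latter 11 rose in SiNAT10_TGFB against SiNAT10. With scaling by library size alone 2 fell in TGFB against con (MYH10 added) and 5 rose in SiNAT10_TGFB against TGFB (TPM3 and VCL added); that scaling moved the median of all genes by −0.14 and 0.14. Negative interactions numbered 9 with the GC trend removed and 9 with the block as well. Leaving out each library gave 23 to 25 risen and 1 fallen in TGFB against con, 3 to 6 and 23 to 24 in SiNAT10 against con, 3 to 4 and 25 to 27 in SiNAT10_TGFB against TGFB, 14 to 21 and 1 in SiNAT10_TGFB against SiNAT10, 9 and 19 to 21 in SiNAT10_TGFB against con, and 0 and 5 to 8 for the interaction. With the GC trend removed, without and with the block, the sign turned for PDLIM5 (−0.14 and −0.14) and VCL (−0.15 and −0.15) in SiNAT10 against con, for CNN1 (0.12 and 0.12), TAGLN2 (0.14 and 0.14) and VCL (−0.14 and −0.14) in SiNAT10_TGFB against TGFB, and for ZYX (0.045 and 0.043) in SiNAT10_TGFB against con. The cause was not tested. In their deviations from the group mean, same-numbered libraries correlated between −0.61 and 0.39, and differently numbered ones between −0.46 and 0.59. Libraries of the same number were thus no closer, which cannot settle whether the samples were paired. With the replicate block alone, 24 rose and 1 fell in TGFB against con, 4 and 24 in SiNAT10 against con, 3 and 26 in SiNAT10_TGFB against TGFB, 18 and 1 in SiNAT10_TGFB against SiNAT10, and 9 and 20 in SiNAT10_TGFB against con; PDLIM5, ZYX and CNN3 each lost a call. Depth limits LDB3, LMOD1, SYNPO2, MYH11 and DES, at 0 to 72 counts per library.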

Other observations

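ACTC1, the alpha actin of heart muscle, is not among the 37 genes and was looked at after its values were seen. It stood at 3.72, 3.40 and 3.03 CPM in con and at 30.1, 31.2 and 32.3 CPM in TGFB. In SiNAT10 the mean was 1.07 ± 0.0975 CPM, and in SiNAT10_TGFB the libraries held 3.09, 1.92 and 2.14 CPM (SD and range over n = 3). The TGFB libraries were all far above the others. ACTC1 rose by 3.20 with TGF-β1 (SE 0.142) and fell by 3.70 with the siRNA under TGF-β1 (SE 0.150), both larger than for any of the 4 actins described above. The TGF-β1 effect with siRNA minus that without was −2.04 (SE 0.252, edgeR adjusted p = 1.5e-05).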
